A study of Mus musculus with 12 samples.

Results

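Genes that mark border-associated macrophages, 9 in all, were described across microglia of 4 mouse brain regions: the receptor genes Mrc1, Stab1, Cd163 and Lyve1, the endocytic adaptor gene Dab2, the secreted factor genes F13a1 and Pf4, the carbonyl reductase gene Cbr2 and the membrane protein gene Ms4a7. They were taken by symbol, and all 9 members were found among the 23337 genes of the count table. The 12 libraries came from wild type male C57BL/6N mice at postnatal day 60, untreated as far as the labels say, with 3 libraries for each of hippocampus, cortex, cerebellum and striatum. Each library was made from 3000 sorted cells of a pool of 3 to 5 mice, and the sort took live cells positive for the microglial surface protein TMEM119, with low CD45 and with CD11b. The labels do not say that the 3 pools of a region held different mice, and a p-value here therefore reflects how far the deposited libraries of a region differ, which can be technical.

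Border-associated macrophages live in the meninges, around vessels and in the choroid plexus, at the margins of the brain tissue in which microglia live. They take up material from blood and cerebrospinal fluid through scavenger and lectin receptors, and as a rule carry little TMEM119 and more CD45 than microglia do, so a gate on TMEM119 and low CD45 is meant to leave them out. The members were separated by textbook knowledge into 7 held to be macrophage markers only (Lyve1, F13a1, Cd163, Pf4, Mrc1, Cbr2 and Ms4a7) and 2 that microglia are also known to express (Stab1 and Dab2). In bulk RNA, a few macrophages among the sorted cells and a low level in many microglia cannot be told apart, nor can fewer cells of a type and less RNA per cell.

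The shallowest library was striatum 2, with 6479839 counts, and the deepest cortex 2, with 14833340. Levels are given as CPM, counts scaled to a common library size with TMM factors. Where a gene has no count, up to 3 counts remain possible, or 0.194 to 0.485 CPM by library, from counting error alone. Striatum 2 stood apart: 19.1% of the tested genes had no count in it, against 1.68% to 6.02% in the other libraries, and its median correlation with the others was 0.760, against 0.892 to 0.919. The sorted cell type showed its defining genes in every library, with Tmem119 at 1082 to 3239 CPM, P2ry12 at 4083 to 6402 and Cx3cr1 at 1768 to 3737. All 9 members passed the filter on low counts, as did 12217 genes in all.

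The 9 markers fell into 2 levels that did not follow the textbook separation. Mrc1, Stab1 and Dab2 were at 229 CPM or more in every library, whereas F13a1, Cbr2, Pf4, Lyve1, Cd163 and Ms4a7 never exceeded 66.1 CPM. Mrc1 had been listed with the macrophage-only genes, but its level lay with that of the pair that microglia are known to express. It made up 82.9% to 98.1% of the summed CPM of the 7 macrophage-only members. Presence in every library is common in itself: 69.1% of the tested genes were at 1 CPM or more in all 12 libraries.

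The promoters of 4 members are shown because they represent the 2 levels: Mrc1 and Stab1, high in every library, and F13a1 and Pf4, low and uneven. The sequences are from RefSeq (GRCm38.p6), which had an entry for 8 of the 9 members (none for Lyve1), and run from 250 bases before to 50 bases after the gene's start, printed 5′ to 3′ on the gene's strand. Capitals mark the letters GAGGAA or, on the other strand, TTCCTC, the core that the macrophage factor PU.1 favours, and TGCTGA or TCAGCA, a half-site of MAF factors.
Mrc1 (chr2:14229164-14229463): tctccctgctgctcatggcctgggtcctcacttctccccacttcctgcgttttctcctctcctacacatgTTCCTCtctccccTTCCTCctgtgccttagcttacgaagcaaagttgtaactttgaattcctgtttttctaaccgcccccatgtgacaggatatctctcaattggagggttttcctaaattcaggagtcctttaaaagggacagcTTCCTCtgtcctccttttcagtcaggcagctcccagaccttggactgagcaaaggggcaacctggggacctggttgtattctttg
Stab1 (chr14:31168592-31168891): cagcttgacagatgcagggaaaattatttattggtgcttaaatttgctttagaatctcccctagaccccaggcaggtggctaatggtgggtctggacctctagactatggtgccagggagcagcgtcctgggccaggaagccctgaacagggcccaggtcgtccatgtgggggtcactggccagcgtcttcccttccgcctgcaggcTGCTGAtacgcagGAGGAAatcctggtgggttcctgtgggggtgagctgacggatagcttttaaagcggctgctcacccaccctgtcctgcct
F13a1 (chr13:37050195-37050494): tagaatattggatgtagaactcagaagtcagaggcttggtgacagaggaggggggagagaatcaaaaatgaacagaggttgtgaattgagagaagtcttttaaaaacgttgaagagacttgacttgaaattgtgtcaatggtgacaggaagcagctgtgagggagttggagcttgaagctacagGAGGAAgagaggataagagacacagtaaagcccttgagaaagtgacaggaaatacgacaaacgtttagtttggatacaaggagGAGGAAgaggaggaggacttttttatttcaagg
Pf4 (chr5:90772185-90772484): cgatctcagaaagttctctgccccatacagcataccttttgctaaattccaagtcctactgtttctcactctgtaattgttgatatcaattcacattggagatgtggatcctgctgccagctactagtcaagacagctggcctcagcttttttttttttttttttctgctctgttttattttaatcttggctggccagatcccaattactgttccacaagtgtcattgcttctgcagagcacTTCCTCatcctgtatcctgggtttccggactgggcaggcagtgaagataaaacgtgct
The PU.1 core occurred 3 times in the window of Mrc1, 2 times in that of F13a1 and once each in those of Stab1 and Pf4. Of the 8 members with an entry, 7 held it in at least 1 promoter, where 28.3% of all 32851 promoters of this length held it; some members have more than 1 entry, and these windows are letters only, with no binding measured here. The MAF half-site was in a window of 3 members, Stab1, Cbr2 and Dab2, against 19.5% of all promoters. No match overlapped another, and members of both levels held the PU.1 core.

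Mrc1 encodes CD206, the mannose receptor, a lectin that takes up glycoproteins (chromosome 2, 14229392 to 14332057, plus strand, GRCm38). Mrc1 stood at 566, 338 and 614 CPM in hippocampus 1, 2 and 3, at 252, 561 and 711 in the cortex libraries, at 229, 389.5 and 581 in those of cerebellum and at 394, 651 and 409 in those of striatum. Cortex 3, striatum 2 and hippocampus 3 were the highest and cerebellum 1 and cortex 1 the lowest, and the libraries of all 4 regions overlapped. The region means were 506 ± 147 in hippocampus, 508 ± 234 in cortex, 399.9 ± 176 in cerebellum and 485 ± 144 in striatum (CPM, SD, n = 3 each).

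Stab1 encodes stabilin-1, a scavenger receptor for modified lipoproteins and matrix fragments (chromosome 14, 31139013 to 31168641, minus strand). Stab1 stood at 652, 355 and 589 CPM in hippocampus 1, 2 and 3, at 396, 558 and 718 in the cortex libraries, at 396, 513 and 971 in those of cerebellum and at 499.6, 1451 and 684 in those of striatum. Striatum 2 held the highest level and cerebellum 3 the next, and the regions overlapped. The means were 532 ± 157 in hippocampus, 557 ± 161 in cortex, 627 ± 304 in cerebellum and 878 ± 505 in striatum (CPM, SD, n = 3 each). Exons of Stab1 overlap exons of Nt5dc2 on the opposite strand, and without strand information the reads of these genes cannot be told apart there. Nt5dc2 was at a mean of 117 CPM.

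Dab2 encodes an adaptor that links cargo receptors to clathrin (chromosome 15, 6299788 to 6440712, plus strand). Dab2 stood at 455, 318 and 472 CPM in hippocampus 1, 2 and 3, at 248, 393 and 432 in the cortex libraries, at 238, 282 and 298 in those of cerebellum and at 257, 266 and 326 in those of striatum. Its libraries differed by 1.98-fold from lowest to highest, the narrowest range among the 9 markers. Hippocampus 3 and 1 were the highest, and all 3 cerebellum libraries lay below all 3 hippocampus libraries. The means were 415 ± 84.3 in hippocampus, 358 ± 97.3 in cortex, 273 ± 31.0 in cerebellum and 283 ± 37.7 in striatum (CPM, SD, n = 3 each).

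**Figure D1:**
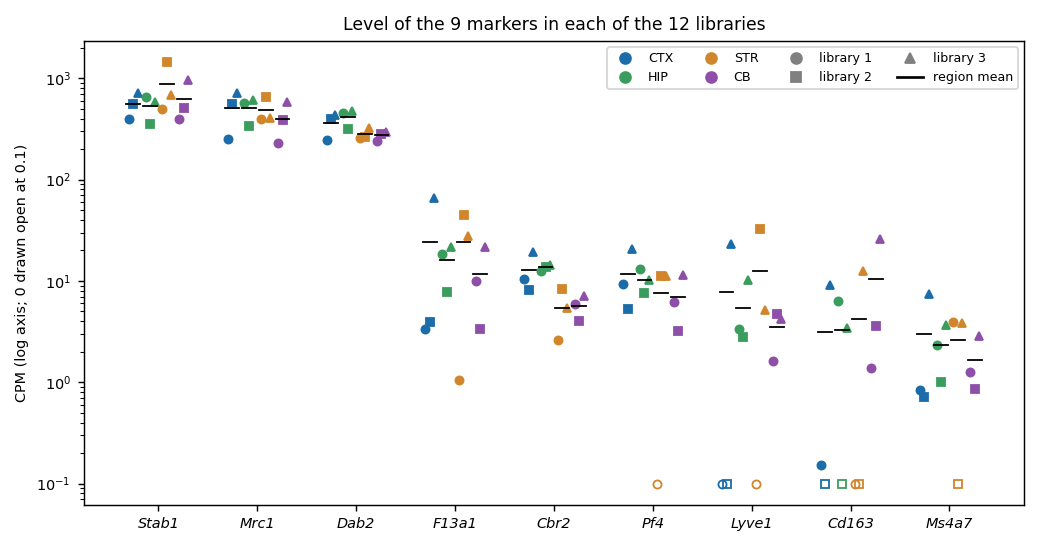
CPM of the 9 markers on a log axis, with 1 point for each of the 12 libraries, coloured by region (CTX cortex, HIP hippocampus, STR striatum, CB cerebellum) and shaped by library number; black lines are region means and open symbols at 0.1 are libraries with no count. Stab1, Mrc1 and Dab2 lie at 229 CPM or more in every library, and the other 6 genes at 66.1 CPM or less.

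The summed level of the 6 low markers spread widely over the libraries of cortex and striatum and less over those of hippocampus. It ran from 18.0 to 146 CPM in cortex, from 7.57 to 96.9 in striatum, from 19.7 to 73.1 in cerebellum and from 33.0 to 63.6 in hippocampus. Over all 12 libraries the range was 19.3-fold, and the region means were 62.9 ± 72.3 in cortex, 56.8 ± 45.4 in striatum, 50.9 ± 15.9 in hippocampus and 39.7 ± 29.1 in cerebellum (SD, n = 3 each). The range over all libraries was 3.10-fold for Mrc1 and 4.09-fold for Stab1. Cortex 3 held 1 of the 3 highest levels for all 6 genes, and striatum 1 held 1 of the 3 lowest levels for 5 of the 6. The exception was Ms4a7, at 3.90 CPM in striatum 1, the next highest after cortex 3.

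F13a1 encodes the A subunit of coagulation factor XIII, which crosslinks fibrin (chromosome 13, 36867178 to 37050244, minus strand). F13a1 stood at 18.3, 7.85 and 21.6 CPM in hippocampus 1, 2 and 3, at 3.34, 3.94 and 66.1 in the cortex libraries, at 9.95, 3.36 and 21.4 in those of cerebellum and at 1.06, 44.7 and 27.5 in those of striatum. It was found in all 12 libraries, 62.1-fold higher in cortex 3 than in striatum 1. The cortex mean of 24.5 ± 36.0 CPM (SD, n = 3) rested on cortex 3: cortex 1 and 2 were among the 4 lowest libraries.

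Lyve1 encodes a hyaluronan receptor of lymphatic vessels and of perivascular macrophages (chromosome 7, 110850607 to 110863239, minus strand). Lyve1 stood at 3.37, 2.77 and 10.3 CPM in hippocampus 1, 2 and 3, at 0, 0 and 23.4 in the cortex libraries, at 1.62, 4.68 and 4.19 in those of cerebellum and at 0, 32.6 and 5.22 in those of striatum. The highest library, striatum 2, was at least 92.0-fold above striatum 1, taking the floor of 3 counts there. Cortex and striatum each held both an empty library and one of the 2 highest, so the regions overlapped. Lyve1 had no count in 3 of 12 libraries.

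Cd163 encodes the receptor that clears haemoglobin bound to haptoglobin (chromosome 6, 124304656 to 124330527, plus strand). Cd163 stood at 6.32, 0 and 3.42 CPM in hippocampus 1, 2 and 3, at 0.152, 0 and 9.19 in the cortex libraries, at 1.39, 3.59 and 26.1 in those of cerebellum and at 0, 0 and 12.6 in those of striatum. In 4 libraries there was no count and cortex 1 had 2 counts, while cerebellum 3 was the highest, at least 53.8-fold above the floor in striatum 2. Striatum 2, with the highest Lyve1, had no Cd163 count, and so these markers did not rank that library alike. It is also the library where 19.1% of the tested genes had no count. Pearson's r of log2 CPM between Lyve1 and Cd163 was 0.50 over the 12 libraries and 0.78 without striatum 2.

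Pf4 encodes platelet factor 4, a chemokine of platelets that border macrophages also make (chromosome 5, 90772435 to 90773383, plus strand). Pf4 stood at 13.1, 7.66 and 10.3 CPM in hippocampus 1, 2 and 3, at 9.41, 5.24 and 20.7 in the cortex libraries, at 6.13, 3.20 and 11.4 in those of cerebellum and at 0, 11.3 and 11.3 in those of striatum. It was detected in 11 of 12 libraries, and the empty one was striatum 1. The means were 10.3 ± 2.70 in hippocampus, 11.8 ± 7.98 in cortex, 6.90 ± 4.14 in cerebellum and 7.54 ± 6.53 in striatum (CPM, SD, n = 3 each), with overlap of all regions.

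Cbr2 encodes a carbonyl reductase (chromosome 11, 120729489 to 120732114, minus strand). Cbr2 stood at 12.6, 13.8 and 14.4 CPM in hippocampus 1, 2 and 3, at 10.6, 8.15 and 19.4 in the cortex libraries, at 5.90, 3.98 and 7.18 in those of cerebellum and at 2.60, 8.24 and 5.38 in those of striatum. All 3 hippocampus libraries lay between 12.6 and 14.4 CPM, above every striatum and cerebellum library. Cortex 3 was the highest of all, and cortex 2 and striatum 2 stood side by side. The means were 13.6 ± 0.912 in hippocampus, 12.7 ± 5.94 in cortex, 5.69 ± 1.61 in cerebellum and 5.41 ± 2.82 in striatum (CPM, SD, n = 3 each).

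Ms4a7 encodes a membrane-spanning protein of the MS4A family that marks macrophages of the brain borders (chromosome 19, 11321039 to 11336146, minus strand). Ms4a7 stood at 2.32, 1.02 and 3.65 CPM in hippocampus 1, 2 and 3, at 0.835, 0.711 and 7.52 in the cortex libraries, at 1.27, 0.859 and 2.87 in those of cerebellum and at 3.90, 0 and 3.88 in those of striatum. It was the lowest member, with 0 to 72 counts per library, and cortex 3 was the highest. Related genes were far more abundant: Ms4a6b stood at 138 to 235 CPM, Ms4a6d at 115 to 232 and Ms4a6c at 20.6 to 73.3, while Ms4a4c stood at 0.162 to 5.85.

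**Figure D2:**
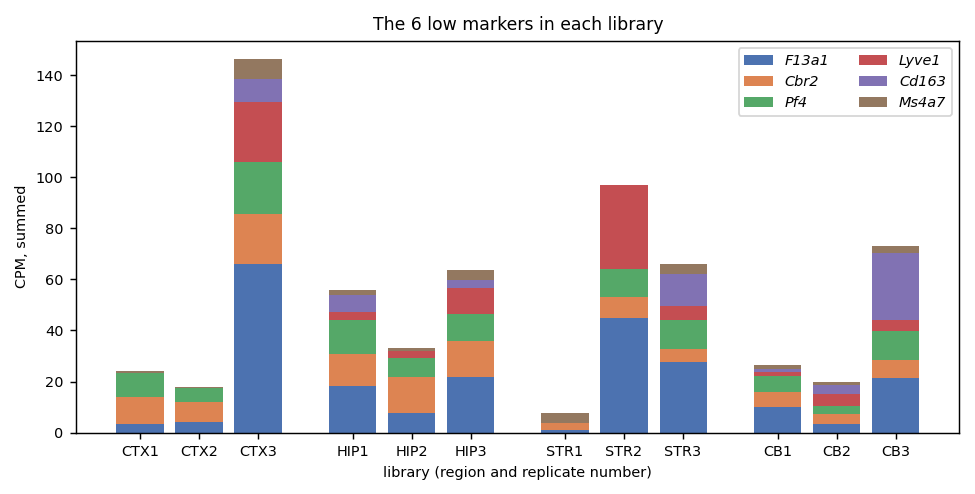
Stacked bars of the CPM of F13a1, Cbr2, Pf4, Lyve1, Cd163 and Ms4a7 in each of the 12 libraries, grouped by region (CTX cortex, HIP hippocampus, STR striatum, CB cerebellum). Cortex 3 reaches 146 CPM and striatum 1 stays at 7.57, while the hippocampus libraries lie between 33.0 and 63.6.

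Per kilobase of exon (all annotated exons of a gene joined), the same 3 genes stood above the other 6, with Mrc1 ahead of Stab1. The mean was 74.5 CPM per kilobase for Mrc1, 63.0 for Stab1 and 45.2 for Dab2. The short Pf4 transcript, with 721 exonic bases, came next at 12.7, then Cbr2 at 7.05, F13a1 at 2.83, Lyve1 at 2.52, Cd163 at 0.957 and Ms4a7 at 0.539. On this scale the lowest library of Dab2 (32.4) was above the highest library of Pf4 (28.7), so the 3 high and 6 low markers did not overlap in any library.

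Levels were then compared between the regions. No marker passed a test of a difference between regions. Over the 4 regions, 0 of 9 members passed (edgeR quasi-likelihood test, Benjamini-Hochberg adjusted p = 1.00 for each), where 0.00% of the 12217 genes passed, and 0 members had an unadjusted p under 0.05, against 1.82% of all genes. Dab2 had the smallest p over the 4 regions (unadjusted p = 0.0564) and Cbr2 the next (unadjusted p = 0.106), while the other 7 had an unadjusted p of 0.312 to 0.948. DESeq2 and limma-voom also called 0 members. At an unadjusted p under 0.05 there were 2 members in DESeq2, where 401 of the 12217 genes were, and 0 in limma-voom, where 280 genes were.

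In the pairs of regions 0 of 9 members passed in each of the 6 comparisons, where 0.00% of genes passed in each. At an unadjusted p under 0.05 there was 1 member in striatum against hippocampus (4.34% of all genes) and 1 in cerebellum against hippocampus (1.28%), Dab2 in both. There was none in hippocampus against cortex (1.01% of all genes), striatum against cortex (5.59%), cerebellum against cortex (1.55%) or cerebellum against striatum (2.40%).

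For Dab2, the hippocampus mean was 415 ± 84.3 CPM and the cerebellum mean 273 ± 31.0 (SD, n = 3 each). Its log2 difference was -0.61 (SE 0.23, 95% interval -1.10 to -0.12), with no overlap of the libraries and without passing the test (edgeR, unadjusted p = 0.0193, adjusted p = 1.00). Leaving out any 1 library kept the difference between -0.77 and -0.51. Between striatum and hippocampus the Dab2 difference was -0.55 (SE 0.23, 95% interval -1.05 to -0.06).

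Between striatum and hippocampus Cbr2 had a log2 difference of -1.33 (SE 0.65, 95% interval -2.73 to 0.07), also with no overlap of the libraries, and did not pass (edgeR, unadjusted p = 0.0601). Against hippocampus, cerebellum differed by -1.26 (95% interval -2.65 to 0.14), and against cortex by -1.16 (-2.55 to 0.23). The spread of Cbr2 about its region means was under that of genes of like level, with a biological coefficient of variation (the relative spread between libraries beyond counting error) of 0.529, where the trend was at 0.768.

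Counted over pairs, libraries did not overlap for 2 members in cerebellum against hippocampus, Cbr2 and Dab2, both lower in cerebellum, where this held for 7.63% of all genes in either direction. The count was 1, Cbr2, in cerebellum against cortex (6.75% of all genes) and in striatum against hippocampus (11.5%). It was 0 in hippocampus against cortex (6.69%), striatum against cortex (10.6%) and cerebellum against striatum (6.34%).

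As for Cbr2, the 95% intervals of the other 7 markers included 0 in the pair with their smallest p. Mrc1 was at a log2 difference of -0.35 in cerebellum against cortex (SE 0.40, 95% interval -1.21 to 0.51), at -0.03 without cortex 3 and at -0.72 without cerebellum 3. Stab1 was at 0.72 in striatum against hippocampus (SE 0.42, 95% interval -0.18 to 1.62), and at 0.16 without striatum 2. F13a1 was at -1.08 in cerebellum against striatum (SE 1.23), at -0.32 without striatum 2 and at -1.88 without cerebellum 3. For Lyve1 the same pair gave -1.84 (SE 2.02, 95% interval -6.22 to 2.54), which turned to 0.40 without striatum 2.

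Cerebellum against cortex was the pair with the smallest p for Cd163, Pf4 and Ms4a7 as well. Cd163 differed by 1.74 (SE 2.27, 95% interval -3.16 to 6.65), a value that was -0.31 without cerebellum 3 and 6.94 without cortex 3. Pf4 differed by -0.77 (SE 1.16), by -0.09 without cortex 3 and by -1.33 without cerebellum 3. Ms4a7 differed by -0.85 (SE 1.47), by 1.09 without cortex 3 and by -1.49 without cerebellum 3. None of these passed (edgeR, adjusted p = 1.00 in that comparison).

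**Figure D3:**
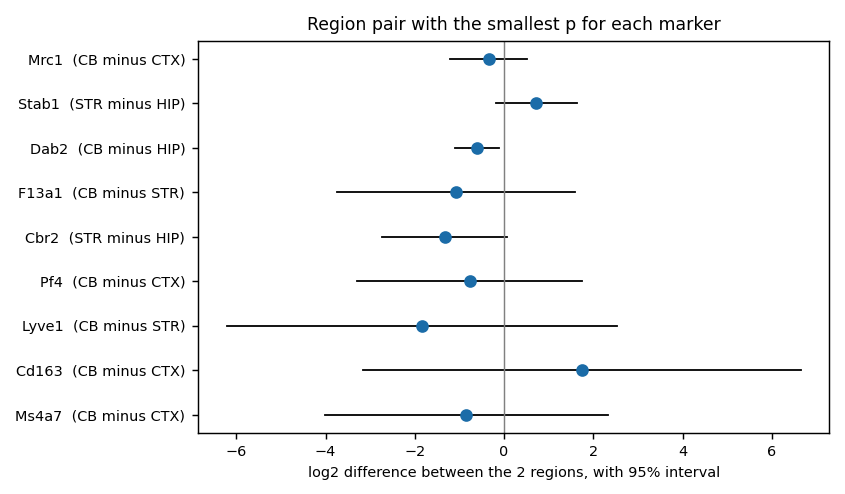
Log2 difference of each marker in the pair of regions where its p was smallest (points) with the 95% interval of the edgeR quasi-likelihood fit (lines); CTX is cortex, HIP hippocampus, STR striatum and CB cerebellum. The intervals of all markers but Dab2 include 0, and those of Lyve1 and Cd163 are the widest.

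Counted as a group, 7 of the 9 members lay lower in cerebellum in each of its 3 pairs, but not the same 7, and these pairs share the cerebellum libraries. Cd163 lay higher in cerebellum in every pair. Stab1 lay higher against cortex (log2 difference 0.17) and hippocampus (0.24), and Cbr2 against striatum (0.07). Against cortex the median log2 difference was -0.77 (all genes 0.01), and with 1 library left out it lay between -1.29 without cerebellum 3 and 0.39 without cortex 3. Against hippocampus it was -0.48 (all genes 0.01), between -0.79 without cerebellum 3 and -0.18 without hippocampus 3. Against striatum it was -0.28 (all genes 0.06), between -0.76 without cerebellum 3 and 0.08 without striatum 2. The direction of the median thus depended on 1 library in 2 of these 3 pairs.

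In hippocampus against cortex 3 members lay higher and 6 lower, with a median of -0.07 (all genes -0.02), which was -0.52 without cortex 2 and 0.54 without cortex 3. In striatum against cortex the counts were 4 and 5 and the median -0.07 (all genes -0.06), which was -0.53 without cortex 1 and 0.88 without cortex 3. In striatum against hippocampus the counts were 5 and 4 and the median 0.16 (all genes -0.05), which turned to -0.33 without striatum 2, -0.24 without striatum 3 and -0.20 without hippocampus 2, and was 0.42 without hippocampus 3. The medians of all 3 pairs changed sign with 1 library left out.

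The homeostatic microglia genes lay the other way in 2 of the cerebellum pairs. All 15 lay higher in cerebellum than in cortex (median log2 difference 0.24) and 12 of 15 higher than in hippocampus (0.07), and 8 of 15 lay higher than in striatum (0.01). None of them passed the edgeR test in these pairs, and their part in the members' values was not tested.

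Lyve1, Cd163 and F13a1 had a spread between libraries of a region well above their trend. The biological coefficient of variation was 1.62 for Lyve1 (trend at its level 0.839), 1.89 for Cd163 (0.937) and 0.970 for F13a1 (0.592), and relative to the trend 1.19%, 0.827% and 4.00% of the tested genes varied more. Among the high markers it was 0.349 for Mrc1 (trend 0.241), 0.361 for Stab1 (0.237) and 0.217 for Dab2 (0.247). Relative to the trend, 8.24%, 6.26% and 53.2% of the tested genes varied more than these, so Mrc1 and Stab1 also lay above their trend. Pf4 (0.916, trend 0.775) and Ms4a7 (1.09, trend 1.18) were nearer to their trend.

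Markers were next compared with each other over the 12 libraries. Several were high in the same libraries: Pearson's r of log2 CPM was above 0 for 34 of the 36 pairs, where 51.6% of all gene pairs were above 0. The median r was 0.50 among the 6 low markers (15 pairs), 0.69 among Mrc1, Stab1 and Dab2 (3 pairs) and 0.37 between these groups (18 pairs). Over all gene pairs the median was 0.02. Among the 6 low markers r ran from -0.07 to 0.86, and among Mrc1, Stab1 and Dab2 from 0.14 (Stab1 with Dab2) to 0.75. A set of 4 pairs passed a permutation test with 100000 resamples, adjusted over the 36 pairs. The points share library, pool and depth, and the markers of a pair come from the same libraries, so pairs are not independent of each other.

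Lyve1 and F13a1 had r = 0.86 (permutation p = 0.00025, adjusted p = 0.0045) and rho = 0.86 (permutation p = 0.00056, adjusted 0.0124). Without cortex 1 and 2, the libraries farthest from the median of Lyve1, r was 0.87, and 0.0573% of the tested genes had as high an r with Lyve1. F13a1 and Pf4 had r = 0.79 (permutation p = 7e-05, adjusted p = 0.00252) and rho = 0.80 (permutation p = 0.0024, adjusted 0.029), and r = 0.75 without cortex 3 and striatum 1. Only these pairs passed in all 12 sets that left out 1 library.

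Pf4 and Cbr2 had r = 0.77 (permutation p = 0.0012, adjusted p = 0.014), but rho = 0.58 did not pass (permutation p = 0.053, adjusted 0.135). Without cerebellum 2 and striatum 1 their r was 0.48, so this relation rests on those libraries, and it passed neither without striatum 1 (r = 0.67) nor without cerebellum 2. Mrc1 and Stab1 had r = 0.75 (permutation p = 0.0044, adjusted p = 0.0396) and rho = 0.87 (permutation p = 0.00069, adjusted 0.0124), and r = 0.69 without cerebellum 1 and cortex 1. As high an r was common for this pair: 2% of the tested genes had it with Mrc1 and 4.79% with Stab1. With 1 library left out their r was 0.72 to 0.79, and the pair did not pass without cortex 1, hippocampus 1, hippocampus 2, striatum 1, cerebellum 1 or cerebellum 2. By rho, F13a1 and Stab1 passed as well (rho = 0.78, permutation p = 0.0042, adjusted 0.0374; r = 0.64, adjusted 0.114).

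Within regions, after region means were subtracted, the r of these 4 pairs was 0.90, 0.88, 0.86 and 0.87, and none passed the exact permutation test over the 1296 rearrangements within regions (adjusted p = 0.118, 0.0694, 0.0694 and 0.0556). Striatum 2, where many genes had no count, was high in Lyve1, F13a1 and Stab1 and had no count of Cd163 or Ms4a7. Without it 8 pairs passed, among them Lyve1 with Cd163 (r = 0.78 against 0.50 with it) and Mrc1 with Dab2 (0.83 against 0.69). For Ms4a7, r was 0.61 with Cd163 and -0.07 to 0.12 with the other low markers, none of which passed. Without striatum 2 its r was 0.54 with Lyve1 and 0.59 with F13a1, and without striatum 1 its r of 0.78 with Cd163 passed.

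**Figure D4:**
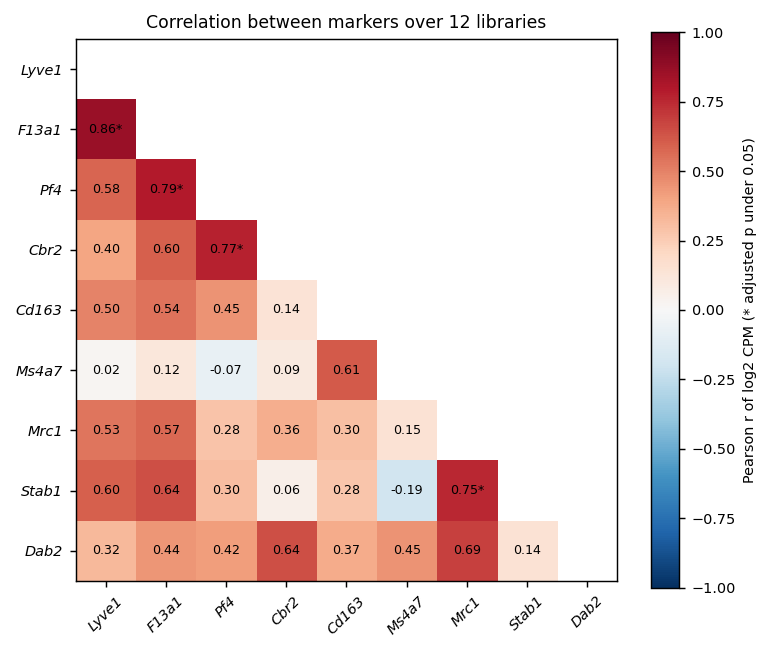
Pearson's r of log2 CPM between each pair of the 9 markers over the 12 libraries, with colour from -1 (blue) to 1 (red) and an asterisk where the permutation p adjusted over 36 pairs is under 0.05. The asterisks mark Lyve1 with F13a1 (0.86), F13a1 with Pf4 (0.79), Pf4 with Cbr2 (0.77) and Mrc1 with Stab1 (0.75).

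The 6 low markers did not keep a fixed proportion to Mrc1. For each 1000 CPM of Mrc1 they summed to 19.2 CPM in striatum 1, 32.1 in cortex 2 and 50.5 in cerebellum 2, and to 206 in cortex 3, a 10.7-fold range. The other 8 libraries lay between 96.2 and 161. The sum and Mrc1 were each highest in cortex 3, while Mrc1 was lowest in cerebellum 1, where the sum was 26.3 CPM.

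Genes of other cells that can also express these markers were read from lists in the same libraries. Pf4 and F13a1 are platelet genes too. Of 8 platelet and megakaryocyte genes, 3 were tested and 0 passed; the list summed to 37.0 to 162 CPM, nearly all from Itgb3 (mean 51.4 CPM) and Gp9 (14.4), followed by Treml1 (1.46) and Itga2b (0.491). The platelet gene Ppbp had no count in 10 of 12 libraries. In cortex 3, the highest library for Pf4, the list stood at 64.1 CPM, and its maximum was in striatum 2. That maximum was nearly all Itgb3, at 161.7 CPM, while Treml1 stood at 0.323 there and Gp9 and Ppbp had no count.

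F13a1 is also a monocyte gene. Monocyte genes summed to 0 CPM in cortex 3 and striatum 2, the highest libraries for F13a1, and to at most 18.2 in any library; Ly6c2 had no count in the 12 libraries, Plac8 averaged 5.29 CPM, Ccr2 3.07 and Vcan 0.303. Neutrophil genes summed to 0.940 CPM at most, with S100a8 at a mean of 0.0831, Camp at 0.0608, S100a9 at 0.00965 and Ngp at 0.00647. Dendritic cell genes summed to 0.646 CPM in striatum 2 and to 51.3 in cortex 3, with Zbtb46 at a mean of 19.8 CPM, Itgax at 7.69, Xcr1 at 1.31 and Flt3 at 0.759. Low sums in striatum 2 are to be read with its 19.1% of tested genes without a count, Zbtb46 among them.

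Lyve1 is also a gene of lymphatic endothelium. Of 4 further lymphatic markers, Flt4, Pdpn and Ccl21a had no count in any library, and Prox1 was at 0.808 CPM in striatum 2, the highest library for Lyve1, and at 18.1 in cerebellum 2. Blood endothelial genes summed to 16.2 to 46.4 CPM, mostly Pecam1 (mean 26.2 CPM), with Cdh5 at 2.84, Itm2a at 2.29 and Flt1 at 0.763; their sums were 18.4 in striatum 2 and 19.1 in cortex 3. Pecam1 had no count in striatum 2, where 19.1% of the tested genes had none. Mural and fibroblast genes summed to 8.88 CPM at most (Col1a2 0.976, Pdgfrb 0.929, Dcn 0.703 and Col3a1 0.451 on average).

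Choroid plexus genes were highest in some of the marker-rich libraries. Their sum was 839 CPM in striatum 2, 296 in cerebellum 3, 128 in striatum 3 and 117 in cortex 3, and 0.211 to 56.1 in the other 8 libraries. Ttr averaged 88.3 CPM, Enpp2 26.6, Clic6 6.44 and Kcnj13 4.19. These 4 libraries were also the 4 highest in the sum of the 6 low markers, at 96.9, 73.1, 65.9 and 146 CPM, with hippocampus 3 close behind at 63.6 CPM and a choroid plexus sum of 1.48. The part of choroid plexus tissue in the marker levels was not tested. Of these lists, 2 monocyte, 0 neutrophil, 4 dendritic cell, 4 blood endothelial, 1 lymphatic, 1 mural or fibroblast and 5 choroid plexus genes passed the filter on low counts, and 0 differed between regions by the edgeR test.

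Further genes of border macrophages were read in the same way. Of 18, 14 were tested and 0 passed over the 4 regions or in any pair. The most abundant were present in every library: Gas6, a ligand of TAM receptors, averaged 1283 CPM, Lyz2, lysozyme, 549, Igfbp4 443 and Tgfbi 107. Others, named here after their values were seen, ranged from low to absent: Ednrb was at 19.7 to 67.7 CPM, Fcna at 8.04 to 19.6, Ccl24 at 5.85 to 18.1, Folr2 at 3.43 to 29.7, Clec10a at 0 to 3.24 and Cd209f at 0 to 3.26. The last pair had no count in 7 and 8 of the 12 libraries. In cerebellum against hippocampus 9 of the 14 lay lower (median log2 difference -0.28, all genes 0.01), and in striatum against hippocampus 11 of 14 (-0.23, all genes -0.05). In cerebellum against cortex, cerebellum against striatum and striatum against cortex 8 of 14 lay lower (-0.04, -0.18 and -0.01), and in hippocampus against cortex 6 of 14 (0.04).

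Among 16 further scavenger and lectin receptor genes, the functional class of Mrc1, Stab1 and Cd163, 10 were tested and 0 passed. Cd68, a lysosomal receptor of macrophages and microglia, averaged 1184 CPM, Scarb2 199, Scarb1 179 and Mrc2 59.1. Stab2, the close relative of Stab1 in liver sinusoids, had no count in the 12 libraries. In cerebellum against hippocampus 8 of the 10 lay lower (median log2 difference -0.24, all genes 0.01).

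Of 16 genes of clathrin endocytosis, the pathway of Dab2, 15 were tested and 0 passed. Lrp1, a large cargo receptor, averaged 860 CPM, the clathrin heavy chain gene Cltc 637, the adaptor subunit gene Ap2m1 359 and the light chain gene Clta 339. Where Dab2 lay lower in cerebellum than in hippocampus, 8 of these 15 lay lower and 7 higher (median -0.04). Of 12 other MS4A genes, 11 were in the table, 4 were tested and 0 passed, with all 4 higher in cerebellum than in hippocampus (median 0.12).

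MHC class II genes are higher in many border macrophages than in microglia. Of 6, 4 were tested and 0 passed, with 1 at an unadjusted p under 0.05 (Cd74, mean 74.2 CPM). H2-DMa averaged 72.6 CPM, H2-DMb1 44.4 and H2-Ab1 11.3. The class II genes H2-Eb1 and H2-Aa were nearly absent, at means of 0.434 and 0.0527 CPM, with no count in 4 and 11 of the 12 libraries. The sum of all 6 was 292 CPM in cortex 1, 270.3 in cortex 3 and 116 in striatum 2. The 2 libraries highest in Lyve1 and F13a1 thus lay at the bottom and near the top for this sum. All 15 homeostatic microglia genes were tested and 0 passed, with 1 at an unadjusted p under 0.05; Csf1r averaged 8232 CPM and Fcrls 3685. Their sum was 38381 to 38718 CPM in the 3 cortex libraries, both poor and rich in low markers, 48059 and 47780.3 in striatum 1 and 2, and highest in cerebellum 1, at 52861.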

How the data were processed

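RNA of 12 microglia libraries was copied with a poly(A)-primed kit that does not mark strand. The deposited table holds raw read counts per gene symbol, made by the authors. Per the submitters' processing notes, Trim Galore 0.4.3, STAR 2.5.3a, Picard, HTSeq and the mm10 build were used; which annotation and strand setting served is not given in the sources used here. Samples were grouped by the region in their titles.

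The analysis used edgeR 4.0.16 (R 4.3.3), with genes kept by filterByExpr over regions (at least 10 counts, 15 in total), TMM scaling, a mean per region fitted to all 12 libraries, and the robust quasi-likelihood test over 12217 genes with Benjamini-Hochberg adjustment (threshold 0.05). Standard errors follow from the F statistic. Correlations used log2 CPM with a prior count of 2. Alternatives were RLE scaling, no filter, DESeq2 1.42.0, limma-voom (limma 3.58.1), the replicate number as a block, and leaving out each library. The fits were tested on simulated data. Counts of same-region libraries differed by far more than sampling noise (chi-square per degree of freedom 32.5 to 93.3). Gene positions are from GENCODE M21 (GRCm38, the build named mm10).

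The members, the gene lists and the separation of members were chosen with earlier results of these data known. All members are named. From each list up to 4 genes with the highest mean CPM are named, along with Tmem119, P2ry12 and Cx3cr1, and the 8 genes most like the summed macrophage-only members; other genes were named after their values were seen. Not every gene picked by the rule is reported here. The lists cover border macrophages, homeostatic microglia, scavenger receptors, clathrin endocytosis, MS4A genes, MHC class II, platelets, monocytes, neutrophils, dendritic cells, blood and lymphatic endothelium, mural cells with fibroblasts, and choroid plexus. Of the listed symbols, 3 were not used here because no row carried them.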

Additional observations from a re-analysis of the deposited data

How the results depend on the processing

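The count of members called was 0 over the 4 regions and in each of the 6 pairs under edgeR, and stayed 0 in all 119 alternatives (RLE scaling, no filter, DESeq2, limma-voom, the replicate block and leaving out each library). Over all genes edgeR called 0 in every comparison, with 222 at an unadjusted p under 0.05 over the 4 regions, and DESeq2 called 5 genes over the 4 regions, 5 in hippocampus against cortex, 12 in striatum against cortex, 7 in cerebellum against cortex, 2 in cerebellum against hippocampus and 3 in cerebellum against striatum; the cause was not tested. The other 113 alternatives gave 0 genes, so leaving out 1 library gave 0 to 0.

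The log2 difference of a member in its pair with the smallest p kept its sign in 149 of 153 alternatives. The 4 that turned were Lyve1 in cerebellum against striatum under limma-voom (0.67) and without striatum 2 (0.40), Ms4a7 in cerebellum against cortex without cortex 3 (1.09) and Cd163 in that pair without cerebellum 3 (-0.31). With 1 library left out, Lyve1 lay between -2.42 and 0.40, Cd163 between -0.31 and 6.94 and Ms4a7 between -1.49 and 1.09. Under limma-voom the cause was not tested.

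Of the 36 pairs of members, 4 passed by Pearson's r. None, 0, passed after region means were subtracted (smallest adjusted p = 0.0556), where fewer rearrangements are possible, and 0 with the replicate block, that is with replicate-number means subtracted, where the r of the 4 pairs was 0.81, 0.74, 0.74 and 0.67 and fewer rearrangements are possible. Leaving out 1 library gave 2 pairs (without cerebellum 2) to 8 (without striatum 2). The replicate block changed no call of a region comparison. Whether the numbers pair the libraries is not given by the labels and was not tested. Deviations of same-numbered libraries correlated at -0.12 to 0.29 (median 0.03, against -0.01 for other numbers), over 0.1 in 4 of 18 pairs. Of the 12 libraries, 7 correlated best with their own number.

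A count of 0 in a low marker leaves up to 3 counts possible. The relation of the zeros to depth was not tested. The deepest library, cortex 2, had 0 counts of Lyve1 and Cd163, where cortex 3, with 9525930 counts in all, had 224 and 88. Striatum 2, the shallowest with 6479839 counts, had 0 counts of Cd163 and Ms4a7. Striatum 1, with 8574116, had 0 counts of Lyve1, Cd163 and Pf4.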

Other observations

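The genes whose level over the 12 libraries was most like the summed CPM of the 7 macrophage-only members, a sum made mostly of Mrc1, were Lpp (Pearson's r = 0.94), Sel1l (0.92), Vps13b (0.92), Eif2c3 (0.92), Herc4 (0.91), Pikfyve (0.91), Gm15471 (0.91) and Gapvd1 (0.91), out of 12217 genes tested. These are descriptions over 12 points, with no test. Lpp stood at 24.1 to 86.1 CPM, Sel1l at 156 to 410.5 and Gapvd1 at 82.3 to 242, each without an empty library.

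Without Mrc1, a choice made after its level was seen, the genes most like the sum of the 6 low markers were others: Pcdhgb4 (0.93), Pstpip2 (0.87), Dpysl5 (0.86), Tmem82 (0.86), Cst7 (0.85), Arhgap22 (0.84), Snord2 (0.84) and D930016D06Rik (0.84). Without cortex 3, the library with the highest sum, Pcdhgb4 was at 0.95 and Pstpip2 at 0.88. Cst7, the cystatin F gene of activated microglia, stood at 1.30 to 21.8 CPM, highest in striatum 2, and Pstpip2, an adaptor gene of myeloid cells, at 0 to 19.1 CPM.

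Within a region, library 3 held the highest sum of the 6 low markers in cortex, hippocampus and cerebellum, at 146, 63.6 and 73.1 CPM, whereas in striatum it was library 2, at 96.9 against 65.9 CPM in library 3. Mrc1 followed the same order of highest libraries, with 711, 614 and 581 CPM in library 3 of the first 3 regions and 651 in striatum 2. The labels do not say what a replicate number stands for.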
